A study of Mus musculus with 6 samples.

Results

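The genes described here encode the proteins of the cytosolic ribosome and the factors that drive it. They were chosen by symbol: names of the Rpl and Rps series, Rplp0 to Rplp2 and Rpsa for ribosomal proteins, and names opening with Eif1 to Eif6, Eef1 or Eef2 for translation factors, with the Rps6k kinases left out. The rule found 144 genes of the 14943 in the count table. Of these, 76 are ribosomal protein genes, 31 of the small subunit and 45 of the large subunit, and 68 are translation factor genes. The 3 EPS libraries are from peritoneum of mice in a model of encapsulating peritoneal sclerosis, a disease in which fibrous tissue wraps the bowel. These mice had daily intraperitoneal dialysis solution (4.25%, 100 mL/kg) with 0.3 mL of an agent labelled SHS, plus, weekly, 4 mg/kg of lipopolysaccharide (an endotoxin of bacteria) by the same route. The 3 control libraries are from mice injected with an equal volume of saline. All were male wild-type C57BL/6J mice aged 8 weeks, and tissue was taken in week 3. The EPS mice had all of the agents, so the agents cannot be told apart, and the labels do not say whether a library pools animals.

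A ribosome joins a small subunit, which reads the messenger RNA, to a large subunit, which makes the peptide bonds. Initiation factors (eIFs) bring the messenger RNA, the first tRNA and the subunits together, and elongation factors (eEFs) deliver aminoacyl-tRNAs and move the ribosome along. Many messenger RNAs of ribosomal proteins and elongation factors begin with a C and a run of pyrimidines, the terminal oligopyrimidine tract, which ties their translation to the kinase complex mTORC1. Transcript levels, as given here, are not rates of protein synthesis.

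The letters at the start site show what many of the ribosomal protein genes share. The windows below run from 20 bases before to 30 bases from an annotated RefSeq start (GRCm38.p6), on the transcribed strand. Capitals mark the runs of a C followed by at least 6 letters that are each C or T and that begin within 20 bases of the start; runs that begin further on are in lower case. The first 4 are ribosomal protein genes that rose in EPS and carry the run near the start, the fifth is the ribosomal protein gene with the largest change, and the last 3 are a factor that rose and 2 that fell. They were chosen after their values were seen.
Rps6: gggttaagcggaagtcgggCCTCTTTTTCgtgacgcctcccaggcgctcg
Rps18: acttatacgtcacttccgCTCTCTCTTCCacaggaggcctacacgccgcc
Rps15a: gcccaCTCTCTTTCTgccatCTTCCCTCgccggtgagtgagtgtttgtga
Rpl28: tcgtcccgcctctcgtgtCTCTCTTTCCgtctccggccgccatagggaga
Rpl12: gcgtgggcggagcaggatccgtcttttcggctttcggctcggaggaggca
Eif3f: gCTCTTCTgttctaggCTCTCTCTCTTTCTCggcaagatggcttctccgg
Eif4g1: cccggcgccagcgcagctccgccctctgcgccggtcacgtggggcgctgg
Eif4ebp2: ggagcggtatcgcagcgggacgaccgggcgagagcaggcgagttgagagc
The windows lie at chr4:86857338-86857387 on the minus strand for Rps6, chr17:33955636-33955685 on the minus strand for Rps18 and chr7:118116118-118116167 on the minus strand for Rps15a. They lie at chr7:4792945-4792994 on the plus strand for Rpl28 and chr2:32961692-32961741 on the plus strand for Rpl12. The window of Eif3f is chr7:108934395-108934444 on the plus strand, that of Eif4g1 is chr16:20672707-20672756 on the plus strand, and that of Eif4ebp2 is chr10:61452640-61452689 on the minus strand.

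A start sequence was found for 56 of the 76 ribosomal protein genes and 53 of the 68 factor genes. The run began within 20 bases of a start in 34 ribosomal protein genes (60.7%), 18 factor genes (34%) and 2832 of 11027 tested genes (25.7%). On the opposite strand the same search found it in 16.1%, 22.6% and 28%. Among the 5 genes named as eEF1 and eEF2 subunits with a start sequence, 4 held it, Eef1e1 among them. Ribosomal protein genes with the run had a median log2 fold change, EPS over control, of 0.98, and so did those without it. Genes without it can hold a shorter run, as the window of Rpl12 does. The medians thus do not compare genes with and without any pyrimidine tract. Of those with the run 30 of 34 rose, and of those without it 21 of 22 rose. Of the tested factor genes with the run 7 of 18 rose (38.9%) and 1 fell. Of those without it 9 of 34 rose (26.5%) and 4 fell. Over all tested genes 31% with the run and 28.7% without it rose. The printed factors do not stand for all: Eef1a2, which fell, carries a run, and Eef1b2 and Eif3a, which rose, do not. The search setting was chosen after looking at the sequences, and a match is a description of letters, not of a working site.

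Library totals ran between 15419232 and 16651797 counts in EPS and between 16092608 and 17684229 in controls. Levels are given as CPM, read counts relative to scaled library sizes, and a gene is called higher or lower at an adjusted p under 0.05 in edgeR's quasi-likelihood test. Over all 13980 tested genes, 29.2% were called higher in EPS, 30.4% lower and 59.6% either way, so a call is common in this comparison. The median log2 fold change of all tested genes was -0.02, with the middle 50% between -0.70 and 0.68. Cell markers differed widely between the groups. The summed level of 10 white blood cell markers was 3591 to 4559 CPM in EPS and 226 to 263 CPM in controls. The 10 fat cell markers summed to 2705 to 4460 CPM in EPS and 30866 to 31580 CPM in controls. The 10 mesothelium markers, of the cells that line the peritoneum, were detected in every library, at 45.2 to 378 CPM in EPS and 135 to 215 CPM in controls. Much of the EPS 1 sum came from Krt8 and Krt18, at 86.3 and 106 CPM there, against 1.88 and 1.49 CPM in EPS 3. Of the 10 markers 0 were called higher and 0 lower, though Upk3b had every EPS library below every control. The 14 markers of exocrine pancreas set EPS 1 apart, with 189525 CPM there, against 205 and 629 CPM in EPS 2 and EPS 3 and 400 to 4601 CPM in controls. Of 8 fibroblast markers 5 were called higher, and all 8 blood endothelium markers were called lower. Controls 1 and 2 were the most alike pair of libraries.

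Ribosomal protein genes rose together in EPS. All 76 were tested, and 70 were called higher and 0 lower by edgeR. At an unadjusted p under 0.05, 72 were higher and 0 lower. DESeq2 called 71 higher and 0 lower, and limma-voom 70 higher and 0 lower. The median log2 fold change was 0.98, the middle 50% lay between 0.75 and 1.12, and the range was -0.20 to 1.70. In 70 of the genes every EPS library lay above every control library, which held for 33.1% of all tested genes, while 35.4% of all tested genes had every EPS library below. The small subunit had 27 of 31 genes higher, with a median of 1.06, and the large subunit 43 of 45, with a median of 0.98. In bulk tissue, a change in the number of cells of a type and a change in RNA per cell cannot be told apart. The part that the shift in cell markers has in these values was not tested.

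**Figure D1:**
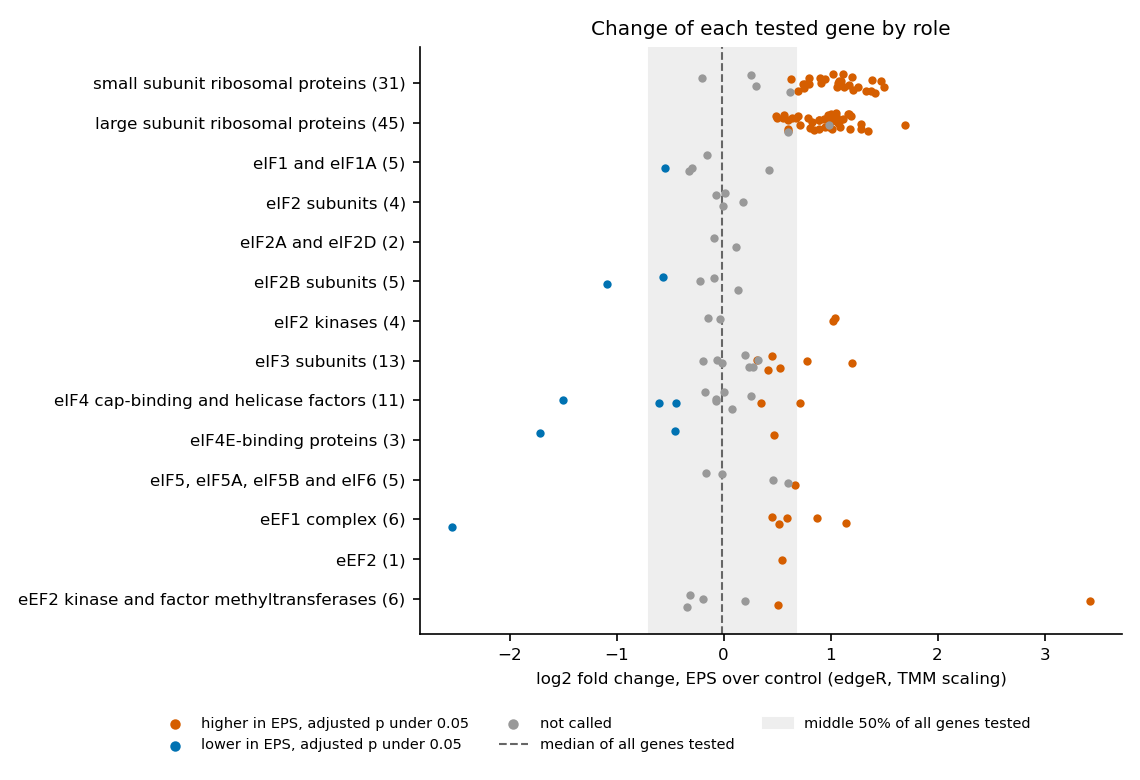
Each point is 1 tested gene, placed by its log2 fold change (EPS over control, horizontal axis) in the row of its role, with the number of genes in brackets. Most ribosomal protein genes lie right of the middle 50% of all tested genes (-0.70 to 0.68), while initiation factors spread to either side of the dashed median.

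The ribosomal protein genes summed to 26954, 21237 and 28799 CPM in EPS 1 to 3, against 12307, 11799 and 14053 CPM in controls 1 to 3. The groups did not overlap, and the means were 25664 ± 3943 CPM in EPS and 12720 ± 1183 CPM in controls (SD, n = 3 each), a ratio of 2.02. EPS 2 was the lowest EPS library for 73 of the 76 genes. EPS 3 was the highest for 59 and EPS 1 for 17, and control 3 was the highest control for 71. On these scaled levels the genes thus moved from library to library largely as a block. The order of libraries depends on the scaling. As a share of raw counts the genes made up 2.52, 2.71 and 3.67% in EPS 1 to 3. EPS 2 was also the lowest EPS library for 39 of the 65 tested factor genes. The summed level of the small subunit over that of the large subunit was 0.736 ± 0.024 in EPS and 0.702 ± 0.013 in controls (SD, n = 3 each), with 1 EPS library inside the range of the controls.

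**Figure D2:**
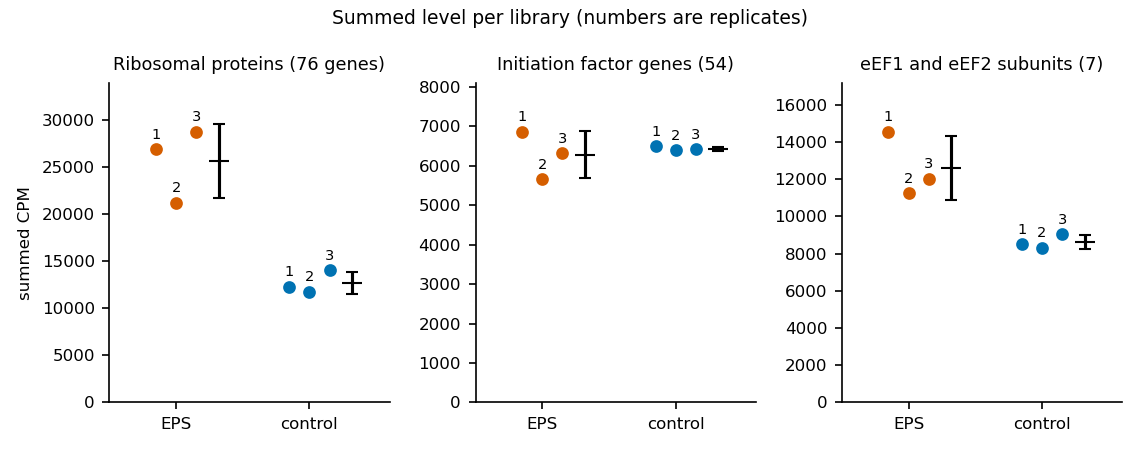
Summed CPM per library (vertical axes, from 0) of the ribosomal proteins, the initiation factor genes and the eEF1 and eEF2 subunits, with EPS left of control in each panel. Eef1e1 is counted among the subunits by name. Numbers are replicates and bars are mean and SD. EPS lies above control for ribosomal proteins (21237 to 28799 against 11799 to 14053) and for elongation factor subunits, and overlaps control for initiation factor genes.

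The largest changes were in genes of either subunit. Rpl12, at the base of the stalk where elongation factors bind (chr2:32961559-32965345, GRCm38), had 559, 438 and 606 CPM in EPS 1 to 3, against 158, 155 and 182 CPM in controls 1 to 3. All EPS libraries lay above all controls, and the log2 fold change was 1.70 ± 0.15 (SE, adjusted p 3.7e-05). Rps15a, a small subunit protein (chr7:118104372-118116188), had 253, 210 and 298 CPM in EPS, against 86.4, 78.8 and 104 CPM in controls. Its log2 fold change was 1.50 ± 0.16 (SE, adjusted p 0.000103), again with no overlap between the groups. Rps27, Rps16 and Rps18 followed, at log2 fold changes of 1.47, 1.42 and 1.39. Rps18, whose window above carries the pyrimidine run at the start, had 280, 197 and 314 CPM in EPS and 96.9, 90.5 and 115 CPM in controls.

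The most abundant members by CPM rose as well. Rpsa, also known as a laminin receptor (chr9:120127689-120132369), had 1820, 1492 and 2146 CPM in EPS, against 673, 705 and 798 CPM in controls, a log2 fold change of 1.33 ± 0.17 (SE, adjusted p 0.000253). Rplp0, which anchors the stalk (chr5:115559467-115563727), had 1637, 1193 and 1841 CPM in EPS, against 629, 550 and 650 CPM in controls, and a log2 fold change of 1.35. Rpl4, whose protein lines the exit tunnel, had 1099, 795 and 821 CPM in EPS and 464, 459 and 535 CPM in controls, and a log2 fold change of 0.90. Each of these genes had its lowest EPS library above its highest control. Rps6, the substrate of the S6 kinases, had 919, 700 and 827 CPM in EPS and 369, 364 and 423 CPM in controls. Per kilobase of transcript, the 76 genes had a median level of 353 CPM in EPS and 193 CPM in controls. Rps26 was the highest per kilobase in EPS, at 1298 CPM per kilobase there and 565 CPM per kilobase in controls. Rpl13a was the lowest, at 4.19 CPM per kilobase in EPS and 2.11 CPM per kilobase in controls.

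The 6 ribosomal protein genes that were not called were Rps19, Rps27l, Rps10, Rpl23a, Rps28 and Rpl13a. Rps19, mutated in human Diamond-Blackfan anaemia, had 109, 92.7 and 150 CPM in EPS, against 137, 119 and 150 CPM in controls. EPS 1 and EPS 2 lay below all controls and EPS 3 above them, and the log2 fold change was -0.20 ± 0.18 (SE, adjusted p 0.363). Without EPS 3, Rps19 was called lower, at -0.42 (adjusted p 0.026, edgeR). Rps10, Rpl23a and Rpl13a had mean levels of 5.03, 5.69 and 4.39 CPM in EPS and 4.07, 3.74 and 2.21 CPM in controls, among the lowest of the family. Rps28 had a log2 fold change of 0.62 ± 0.28 (SE, adjusted p 0.0877), and was called higher by DESeq2 (adjusted p 0.0457) and by edgeR without control 3 (0.0358) or EPS 2 (0.0247). Rpl13a was called higher without control 3 (0.034) or EPS 2 (0.0492), and Rpl23a without EPS 1 (0.0459). With library totals alone, Rps27l, Rpl23a, Rps28 and Rpl13a were all called higher (adjusted p 0.0228, 0.0153, 0.0097 and 0.0158).

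**Figure D3:**
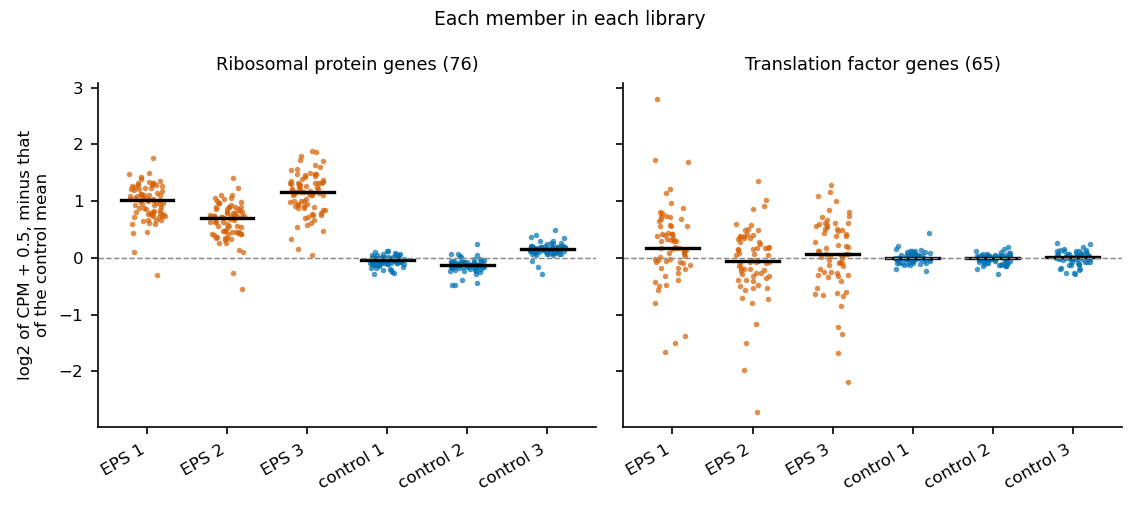
Each point is 1 gene in 1 library, as log2 of CPM + 0.5 minus that of the control mean (vertical axis), and bars are medians. The medians of the 76 ribosomal protein genes are 1.02, 0.71 and 1.16 in EPS 1 to 3 and between -0.13 and 0.15 in controls, and those of the 65 tested factor genes are 0.18, -0.05 and 0.07 in EPS.

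Ribosomal protein genes have many near-identical copies in the genome, and nothing used here states how the authors counted a read that fits more than 1 of them. The share of a gene's 100-base words that also occur in another annotated transcript ranged from 0 to 98.4% over the 76 genes. Single values of the most shared genes, such as Rps27 (98.4%) and Rpl10 (91.6%), are thus uncertain. So are the low levels of the uncalled Rps10 (66.2%), Rpl23a (80%) and Rpl13a (55.2%). The part that sharing has in those levels was not tested. Of the 12 genes with under 10% of words shared 11 rose, of the 31 with 10 to 50% 29 rose, and of the 33 with 50% or more 30 rose. Their median log2 fold changes were 1.06, 0.94 and 0.98. Rpl32 (0%) and Rpl22 (0%) are examples with no shared words, at log2 fold changes of 1.29 and 0.56. The share was taken over 1 transcript per gene. For Rps15a (3.06% shared) and Rps20 (5.91%) it was 5130 and 3706 bases long, against a median of 733 bases. A share of so long a transcript can be low though many words are shared, so their place among the 12 is uncertain. Over the 76 genes, Spearman's rho of the log2 fold change was -0.008 with the shared words and 0.313 with transcript length, as descriptions over genes counted in the same libraries.

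The translation factor genes did not move as a block. Of the 68, 65 were tested, and 20 were called higher (30.77%), 9 lower (13.85%) and 36 neither. Over all tested genes 29.2% were called higher and 30.4% lower, so the share of factors called higher was near that of all genes. The median log2 fold change of the factors was 0.08, and every EPS library lay above every control in 23 genes and below in 12. Over all tested genes this held for 33.1% and 35.4%. Low counts kept Eif4ebp3, Eef1akmt4 and Eif3j2 from the test. The factor genes summed to 21525, 17025 and 18455 CPM in EPS and 15080, 14807 and 15576 CPM in controls, with no overlap. Eef1a1 and Eef2 made up most of this, at 11676 ± 1648 CPM in EPS and 8105 ± 357 CPM in controls (SD, n = 3 each). The other 66 factor genes summed to 7326 ± 719 CPM in EPS and 7049 ± 64.3 CPM in controls (SD, n = 3 each), with groups that overlapped. The summed level of ribosomal proteins over that of factors was 1.25, 1.25 and 1.56 in EPS 1 to 3, against 0.816, 0.797 and 0.902 in controls 1 to 3.

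The count of factors called higher was 10 without control 1, 10 without control 2 and 13 without control 3, against 22, 22 and 17 without EPS 1, 2 and 3. Calls over all genes moved too. From 4088 higher with all libraries, they became 3479, 3459 and 3589 without controls 1, 2 and 3. Without EPS 1, 2 and 3 they were 4393, 3951 and 4179. EPS 1, the library with the pancreas signal, was the highest EPS library for 38 of the 65 factors. Without EPS 1, 22 factor genes were higher and 12 lower, and 71 ribosomal protein genes were higher, with a median of 1.04. Scaling by library totals alone raised the median of all genes by 0.42, and gave 33 factors higher and 4 lower, and 74 ribosomal protein genes higher and 0 lower.

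Among the initiation factor genes, 12 of 52 tested were higher (23.1%) and 8 lower (15.4%), beside 29.2% and 30.4% of all tested genes. The median log2 fold change of the initiation factor genes was -0.00, beside -0.02 over all tested genes. Their summed level was 6287 ± 601 CPM in EPS and 6435 ± 52 CPM in controls (SD, n = 3 each). The multi-subunit factor eIF3, which joins the small subunit to the messenger RNA, had 6 of 13 tested subunit genes higher and 0 lower. DESeq2 called 7 higher and 0 lower, limma-voom 6 higher and 0 lower, and at an unadjusted p under 0.05 there were 7 higher and 0 lower. Without control 1, 2 or 3 the edgeR count was 4 each time. Eif3a, its largest scaffold subunit (chr19:60761117-60790658), had 197, 109 and 105 CPM in EPS, against 62.3, 64.6 and 51.6 CPM in controls. EPS 1 stood well above the others, the groups did not overlap, and the log2 fold change was 1.20 ± 0.25 (SE, adjusted p 0.00486). Eif3f, whose window above holds the longest run printed, had 254, 205 and 322 CPM in EPS and 166, 139 and 151 CPM in controls, a log2 fold change of 0.78 ± 0.17 (SE, adjusted p 0.00471). Eif3h and Eif3d, of which Eif3d can bind the cap, had log2 fold changes of 0.53 and 0.45. Eif3k and Eif3g were called at 0.41 and 0.31, with adjusted p of 0.027 and 0.0441. Eif3k was not called without control 1, 2 or 3 or EPS 3 (adjusted p 0.0552 to 0.0966). Eif3g was not called without any 1 of the controls, EPS 1 or EPS 3 (0.0602 to 0.133), with no filter (0.0514) or by limma-voom (0.0582), which called Eif3c in its place (0.0493).

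The factor eIF2 brings the first tRNA, eIF2B recharges it with GTP, and the eIF2 kinases switch it off under stress. None of the 4 eIF2 subunit genes was called by edgeR, DESeq2 or limma-voom (0 of 4), and 0 had an unadjusted p under 0.05. Eif2s1, the phosphorylated subunit, had 58.8, 46.8 and 47.3 CPM in EPS, against 48.3, 42.2 and 44.5 CPM in controls. Eif2s2 had 47.7, 26.8 and 17.6 CPM in EPS, spread to either side of its control values of 31.9, 32.6 and 32.2 CPM. Without EPS 1, Eif2s2 was called lower, at -0.47 (adjusted p 0.0404, edgeR). Of the 5 eIF2B subunit genes, 2 fell (40%), beside 30.4% of all tested genes. Eif2b3 had 11.1, 8.46 and 8.17 CPM in EPS, against 20.9, 17.7 and 20.4 CPM in controls, a log2 fold change of -1.09 ± 0.17 (SE, adjusted p 0.000819). Eif2b1 had a log2 fold change of -0.56 ± 0.15 (SE, adjusted p 0.013) and was not called without control 1 (adjusted p 0.0631) or with library totals alone (-0.17, adjusted p 0.451).

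Of the 4 kinases, 2 rose (50%), beside 29.2% of all tested genes. Eif2ak2, the kinase PKR that binds double-stranded RNA, had 19.9, 29.1 and 18.8 CPM in EPS, against 11, 12.5 and 9.79 CPM in controls, and a log2 fold change of 1.03 ± 0.20 (SE, adjusted p 0.00292). Eif2ak3, the kinase PERK of the endoplasmic reticulum, had 93.9, 40.5 and 44 CPM in EPS and 26.9, 27.8 and 31.7 CPM in controls. EPS 1 was more than 2-fold above the other EPS libraries, and the log2 fold change of 1.04 ± 0.33 (SE, adjusted p 0.0286) was 0.63 without it (adjusted p 0.00311). Leaving out control 1, 2 or 3 ended the call of Eif2ak3, with adjusted p of 0.089, 0.0878 and 0.0668, as did limma-voom (0.0507). Eif2ak1, the haem-regulated kinase, and Eif2ak4, which senses amino acid shortage, had log2 fold changes of -0.04 ± 0.12 and -0.14 ± 0.13 (SE), with groups that overlapped.

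The eIF4 factors bind the cap and unwind the leader. Of 11 genes, 2 rose (18.2%) and 3 fell (27.3%), beside 29.2% and 30.4% of all tested genes. Eif4b, which stimulates the helicase, had 542, 437 and 466 CPM in EPS, against 303, 288 and 289 CPM in controls, and a log2 fold change of 0.72 ± 0.12 (SE, adjusted p 0.00109). Eif4g1, the scaffold of the cap complex, had 621, 534 and 566 CPM in EPS, against 884, 885 and 848 CPM in controls, and a log2 fold change of -0.60 ± 0.12 (SE, adjusted p 0.00279). Its relatives Eif4g2 and Eif4g3 had log2 fold changes of -0.18 and 0.08 and were not called. The main cap-binding gene Eif4e had 71.5, 58.1 and 62.8 CPM in EPS and 67.5, 66.7 and 67.1 CPM in controls, groups that overlapped. Its relative Eif4e3 (chr6:99625135-99666771) had 22.7, 25.5 and 28.6 CPM in EPS, against 67.8, 63.6 and 87.1 CPM in controls, a log2 fold change of -1.51 ± 0.15 (SE, adjusted p 7.32e-05). The helicase genes went opposite ways. Eif4a1 was called higher at 0.35 ± 0.12 (SE, adjusted p 0.0357) and Eif4a2 lower at -0.44 ± 0.13 (SE, adjusted p 0.0203). Both calls were lost without control 1 or control 2, with adjusted p between 0.0693 and 0.121, and that of Eif4a1 also without control 3 (0.0966) and without EPS 3 (0.0687). With library totals alone the changes of Eif4g1 and Eif4a2 shrank to -0.19 and -0.04 and were not called.

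The binding proteins hold eIF4E away from eIF4G until mTORC1 phosphorylates them. Eif4ebp1 (chr8 in GRCm38) had 71.8, 51.5 and 63.9 CPM in EPS, against 203, 217 and 194 CPM in controls, the lowest control being over 2-fold above the highest EPS library. Its log2 fold change was -1.71 ± 0.14 (SE, adjusted p 2.3e-05), the largest fall of a tested initiation factor gene. Eif4ebp2 had 288, 255 and 285 CPM in EPS and 378, 384 and 370 CPM in controls, a log2 fold change of -0.45 ± 0.10 (SE, adjusted p 0.00566), which was -0.03 and not called with library totals alone. Eif4enif1, which carries eIF4E to the nucleus, rose to 77.2, 82.7 and 82.4 CPM in EPS, against 57.3, 57.9 and 59.5 CPM in controls. Of the 5 genes of eIF1 and eIF1A, 1 was called, where 59.6% of all tested genes were called either way. Eif1a, needed for scanning, was lower at -0.55 ± 0.13 (SE, adjusted p 0.0079), and not called with library totals alone (-0.15, adjusted p 0.436). Eif1 was called lower without EPS 3 (-0.48, adjusted p 0.00626, edgeR). Without EPS 1, Eif1ax was called lower (-0.35, adjusted p 0.0232) and Eif1ad higher (0.63, adjusted p 0.0113), as Eif1ad was with library totals alone (0.87, adjusted p 0.0129). Of the 5 genes of eIF5, eIF5A, eIF5B and eIF6, 1 was called, again beside 59.6% of all tested genes. Eif5b, which joins the subunits, was higher at 0.67 ± 0.23 (SE, adjusted p 0.0374). The call of Eif5b was lost with limma-voom (adjusted p 0.0559) and without control 1, 2 or 3 (0.104, 0.0793 and 0.112), and its change was 0.41 without EPS 1. Without EPS 1, Eif6, which keeps free large subunits apart, was called higher too, at 0.68 (adjusted p 0.03, edgeR), and Eif5 lower, at -0.29 (adjusted p 0.0393, edgeR). Eif5a had 336, 251 and 366 CPM in EPS and 323, 300 and 342 CPM in controls, groups that overlapped. Eif2a and Eif2d were not called, at log2 fold changes of -0.09 and 0.12.

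The elongation factor subunits, with Eef1e1 counted by name, differed from the initiation factors in count. Of the 7, 6 rose and 1 fell, beside 29.2% higher and 30.4% lower over all tested genes. The median log2 fold change of the 7 was 0.55. The difference between the roles was not tested. Eef1a1, which delivers aminoacyl-tRNA (chr9:78478449-78489151), was the factor gene of highest CPM, with 9469, 7471 and 7749 CPM in EPS, against 5644, 5528 and 6082 CPM in controls. Its log2 fold change was 0.52 ± 0.14 (SE, adjusted p 0.0146). Eef2, which moves the ribosome along, had 4085, 3003 and 3251 CPM in EPS and 2334, 2302 and 2426 CPM in controls, and a log2 fold change of 0.55 ± 0.15 (SE, adjusted p 0.0143). Of the genes whose proteins recharge eEF1A, Eef1b2 had 238, 193 and 251 CPM in EPS, against 102, 93.6 and 112 CPM in controls, and a log2 fold change of 1.15 ± 0.13 (SE, adjusted p 0.000142). Eef1g had a log2 fold change of 0.87 and Eef1d of 0.46. Eef1e1, a part of the tRNA synthetase complex in spite of its name, was at 0.59. Without control 1 or control 2 the number of subunits called higher was 2, since Eef1a1, Eef2, Eef1d and Eef1e1 then had adjusted p between 0.0574 and 0.0718.

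Eef1a2, the form of eEF1A known from muscle and neurons, fell to 1.59, 0.329 and 0.694 CPM in EPS, against 5.79, 4.96 and 4.04 CPM in controls. These are 23, 7 and 14 counts in EPS and 81, 75 and 61 counts in controls, and the log2 fold change was -2.54 ± 0.53 (SE, adjusted p 0.00362). Beside it, the 12 skeletal muscle markers summed to 15.6, 79.4 and 17.9 CPM in EPS and 66.6, 61.6 and 86.5 CPM in controls, with 4 called higher and 3 lower. The 8 nerve and glia markers summed to 116 to 142 CPM in EPS and 128 to 155 CPM in controls, with 4 called lower. The part of those cells in the change of Eef1a2 was not tested. Of the 6 tested modifiers 2 rose (33.3%), near the 29.2% of all tested genes. Eef1akmt3, a methyltransferase of eEF1A, had 62, 19 and 21 counts in EPS and 6, 1 and 1 counts in controls. It was called higher at 3.43 ± 0.95 (SE, adjusted p 0.015), but not without control 2 or control 3 (adjusted p 0.0605 and 0.0586). Eef1aknmt, another methyltransferase of eEF1A, was called at 0.51 ± 0.17 (SE, adjusted p 0.0327), but not without control 1, control 3 or EPS 3 (adjusted p 0.0825, 0.11 and 0.0576). Eef2k, the kinase that inactivates eEF2, had a log2 fold change of 0.20 ± 0.12 (SE) and was not called.

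**Figure D4:**
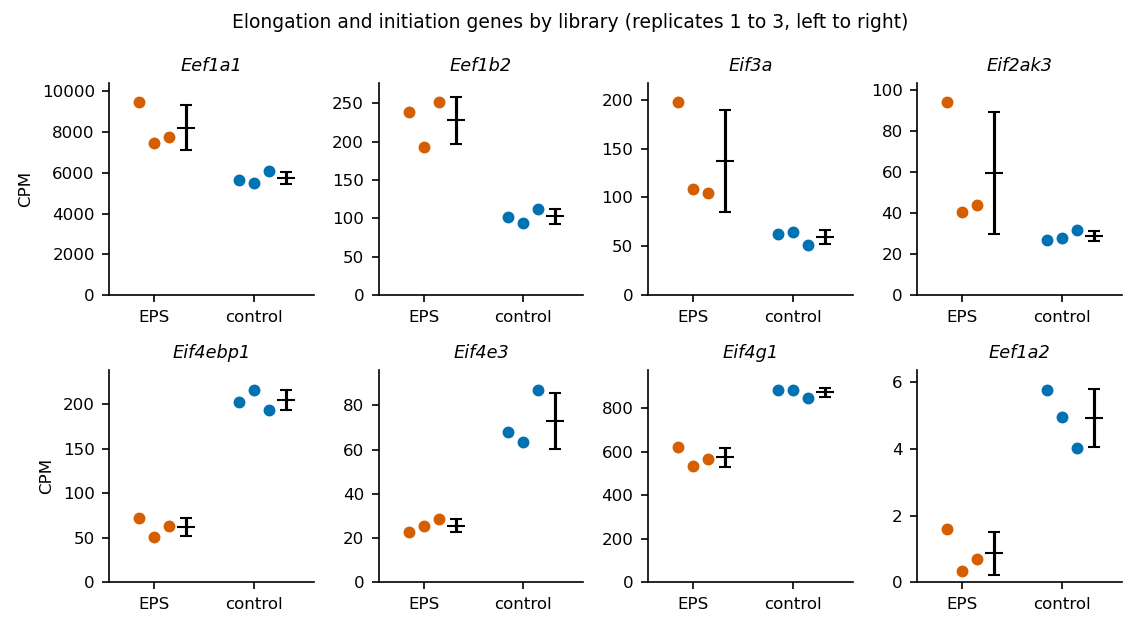
CPM per library (vertical axes, from 0) of 8 factor genes, with EPS left of control and mean and SD as bars (n = 3 each). The upper row rose and the lower row fell in EPS, and EPS 1 is the highest point for Eif3a (197 CPM) and Eif2ak3 (93.9 CPM).

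Taking a call together with a fold above 2, 17.3% of all tested genes were higher and 16.8% lower. Of the 76 ribosomal protein genes 36 were higher in this way and 0 lower. Of the 65 factor genes 5 were higher and 4 lower, the 4 being Eif4ebp1, Eif4e3, Eif2b3 and Eef1a2.

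Within pairs of related genes, the ratio of their CPM was compared between the groups. The ratios are not corrected for transcript length, so they do not say which gene of a pair has more transcripts. Of 18 pairs listed, 14 had both genes in the table. Eif4a2 over Eif4a1 was 0.844, 0.758 and 0.539 in EPS, against 1.21, 1.28 and 1.15 in controls, so every EPS library had a lower ratio than every control. Of the words of Eif4a1, 60.8% occur in other genes, which leaves its own level uncertain. Eif4e3 over Eif4e was 0.318, 0.439 and 0.456 in EPS, against 1.00, 0.953 and 1.30 in controls. Eif4ebp2 over Eif4ebp1 was 4.02, 4.96 and 4.46 in EPS, against 1.86, 1.77 and 1.91 in controls. Rps27l, a relative of Rps27 that p53 induces, over Rps27 was 0.710, 0.390 and 0.288 in EPS and 1.08, 1.32 and 0.768 in controls. For Rps27, 98.4% of the words occur in other genes, so its own level is uncertain as well. Eif2s3y over Eif2s3x, the Y- and X-linked copies, was 0.264 in EPS and 0.260 in controls on average. An exact two-sided permutation test of 3 against 3 libraries cannot go below p = 0.1. The first 4 of these pairs reached 0.1 (0.14 adjusted over 14 pairs), and the X and Y pair had p = 0.8 in the exact test.

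**Figure D5:**
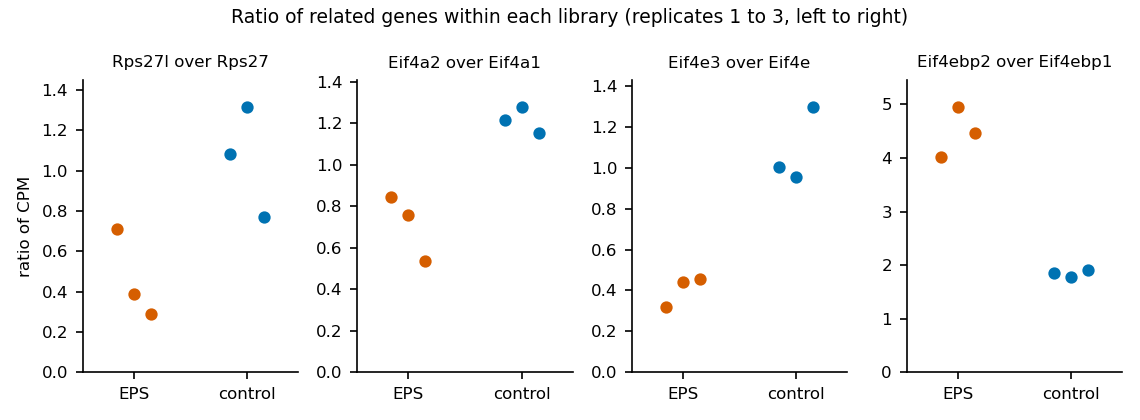
Ratio of CPM within each library (vertical axes, from 0) for 4 pairs of related genes, with EPS left of control. The groups do not overlap in any of these pairs, and Eif4ebp2 over Eif4ebp1 is 4.02 to 4.96 in EPS against 1.77 to 1.91 in controls. Other pairs, not shown, had the same exact p as these.

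Other genes of the pathway were read from 6 lists. Over all tested genes 29.2% were called higher and 30.4% lower, the shares that each list stands beside. Of 7 tested ribosomal protein genes whose symbols the naming rule missed, 4 rose. Rack1, a scaffold on the small subunit, had 809, 605 and 881 CPM in EPS and 273, 284 and 301 CPM in controls, a log2 fold change of 1.42 ± 0.16 (SE, adjusted p 0.000139). Fau, which encodes a ubiquitin-like protein fused to a small subunit protein, had a log2 fold change of 1.23. Ribosome biogenesis had 42 of 79 genes higher and 6 lower, with a median log2 fold change of 0.45. Ddx21, a nucleolar helicase, and Utp14a, of the small subunit processome, rose by 1.12 and 1.33 on the log2 scale. Sbds, which helps to free eIF6 from the large subunit, and Ddx27, a nucleolar helicase, had log2 fold changes of -0.64 and -0.73, which were not called with library totals alone (adjusted p 0.415 and 0.179).

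Of 22 cytosolic aminoacyl-tRNA synthetase genes, 9 were higher and 0 lower by edgeR, with 11 higher and 0 lower at an unadjusted p under 0.05 and by DESeq2, and 8 higher and 0 lower by limma-voom. Without control 2 or control 3 edgeR called 5 higher. Vars, for valine, had 164, 146 and 184 CPM in EPS, against 57, 59.1 and 60.9 CPM in controls, and Iars, for isoleucine, a log2 fold change of 0.99. Of 14 termination, recycling and poly(A)-binding genes, 1 was higher and 4 lower. The gene that rose was Pabpc1, the main poly(A)-binding protein, at 1308, 994 and 1074 CPM in EPS and 484, 533 and 534 CPM in controls. Paip2, its inhibitor, had a log2 fold change of -0.78, not called with library totals alone (-0.37, adjusted p 0.103), and Mcts2 of -1.86. The count of lower genes was 2 without control 1 or control 2.

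Of 24 genes of mTORC1 and cap-dependent control, 8 rose (33.3%) and 9 fell (37.5%), near the 29.2% and 30.4% of all tested genes. Myc, a driver of ribosome biogenesis, had 65.5, 59.9 and 70.8 CPM in EPS, against 13.1, 15.3 and 18.7 CPM in controls, a log2 fold change of 2.06 ± 0.15 (SE, adjusted p 1.4e-05). Rps6ka1, a kinase of Rps6, had a log2 fold change of 2.73. Mknk2, which phosphorylates eIF4E, had 358, 363 and 472 CPM in EPS, against 1164, 1162 and 1241 CPM in controls. Tsc2, an inhibitor of mTORC1, had a log2 fold change of -1.01. Of 16 targets of the integrated stress response, 6 rose (37.5%) and 4 fell (25%), beside the same shares of all tested genes. The 4 became 1 without EPS 3, 2 without EPS 2, control 2 or control 3, and 6 without EPS 1. The count of higher genes was 4 without EPS 2 or control 2. Ddit3 had a log2 fold change of 0.86, and Slc7a11, a cystine transporter, had 177, 136 and 155 counts in EPS, against 8, 0 and 0 counts in controls. Psat1 and Phgdh, of serine synthesis, had log2 fold changes of -1.25 and -1.48, and Phgdh was not called without EPS 3 (adjusted p 0.0786). The 8 markers of cycling cells, all of which rose, summed to 210 to 250 CPM in EPS and 13 to 16.6 CPM in controls, and the 8 of B and plasma cells, all of which rose, to 844 to 1154 CPM in EPS and 10.5 to 25.3 CPM in controls. Their part in the pathway values was not tested.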

How the data were processed

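Total RNA of 6 peritoneum samples was selected for polyadenylated RNA and sequenced, per the labels' protocols, which name no step that marks strand. The deposited values are whole-number counts per symbol, unnormalized by the authors. Per the submitters' processing notes the build was mm10. No source used here names the aligner, counter or annotation. Whether samples of a group are separate animals or pools is not stated, so p-values measure only the spread between samples.

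From the deposited counts, edgeR 4.0.16 (R 4.3.3) kept 13980 genes with filterByExpr, scaled libraries by TMM and tested EPS against control by its robust quasi-likelihood test with no covariates and Benjamini-Hochberg adjustment over all tested genes. CPM are on TMM-scaled sizes. The SE of a log2 fold change is its size over the square root of F. Alternatives, 17 planned and 1 chosen after seeing the data, included DESeq2 1.42.0 and limma 3.58.1. The test was first tested on simulated data. Gene bodies and transcripts are from GENCODE vM21, found for 143 of the 144 genes, and start sequences from RefSeq (GRCm38.p6). No strand is used, so overlapping genes cannot be told apart.

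The members and lists were chosen with earlier results of these data known. Genes set to be named were the 5 ribosomal protein and 8 factor genes of largest change in each direction with groups that did not overlap, related pairs, all eIF2, eIF4 and eEF1 genes, the 3 ribosomal protein genes of highest CPM, and 2 called genes in each direction per list. Some of these, such as Eif4a3 and Eif5a2, are not described above. Genes outside this rule, such as Rps6, Rps26, most of the uncalled ribosomal protein genes and Eif3d, Eif3g, Eif3h and Eif3k, were chosen after their values were seen.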

Additional observations from a re-analysis of the deposited data

How the results depend on the processing

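Over 18 alternatives, 61 of the 70 ribosomal protein genes called higher kept the call in every setting, as did 9 of the 20 factor genes called higher and 4 of the 9 called lower. Ribosomal protein genes called higher numbered 64 to 74. With 1 library left out, those called lower numbered 0 to 1, and factors called higher 10 to 22. With controls 1 and 2 as 1 sample, 10 factors were higher. Library totals alone gave 33 factors higher and 4 lower, and medians of 1.41 for ribosomal proteins and 0.50 for factors, where the median of all genes moved by 0.42. The cause of these changes was not tested. The replicate block gave 72 and 0 ribosomal protein genes and 18 and 10 factors higher and lower. With it Eif1 was called lower and Rps28 and Rpl13a higher (adjusted p 0.0344, 0.0169 and 0.0256), and Eif3g and Eef1aknmt were not called (0.0546 and 0.0538). Same-numbered samples correlated at 0.20, -0.095 and 0.24, so the numbers were not read as pairs.

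Over the 162 tested members and named genes, the sign turned in 75 values of 27 genes, 0 of them called in either setting, with log2 fold changes of at most 0.35 in size to begin with. With library totals they were 0.097 (Eef1akmt1), 0.23 (Eef1akmt2), 0.12 (Eef2kmt), 0.29 (Eif2a), 0.33 (Eif2b4), 0.19 (Eif2b5), 0.36 (Eif3b), 0.22 (Eif3l), 0.22 (Eif5), 0.23 (Rps19), 0.11 (Eif1), 0.11 (Eif1ax), 0.27 (Eif1b), 0.39 (Eif2ak1), 0.26 (Eif2ak4), 0.27 (Eif2s2), 0.39 (Eif2s3x), 0.37 (Eif3j1), 0.34 (Eif4e), 0.23 (Eif4g2), 0.36 (Eif4h), 0.40 (Eif5a) and 0.22 (Rpl22l1). For Eif2ak1, Eif2s3x, Eif3j1 and Eif5a they were 0.018, 0.042, 0.034 and 0.038 with RLE factors, 0.0040, 0.030, 0.021 and 0.020 with upper-quartile factors, and 0.019, 0.041, 0.033 and 0.038 with DESeq2. With controls 1 and 2 as 1 sample they were 0.015 (Eif2ak1), -0.0058 (Eif4e2) and -0.0040 (Rpl7l1), and with EPS 1 also left out 0.13 (Eif2ak1), -0.073 (Eif2s3y), 0.067 (Eif4h) and 0.0053 (Eif5a). Eif2s3x was at 0.0022 with TMM computed without the member genes. Eif2s3y and Eif4e2 were at -0.025 and -0.0012 with limma-voom and -0.0040 and -0.00097 with the replicate block, and Eif4e2 at -0.00035 with no filter. With 1 library left out the ranges were -0.27 to 0.13 (Eif2a), -0.17 to 0.019 (Eif2b4), -0.12 to 0.042 (Eif3b), -0.14 to 0.060 (Eif2ak1), -0.47 to 0.20 (Eif2s2), -0.11 to 0.12 (Eif2s3x), -0.082 to 0.13 (Eif2s3y), -0.17 to 0.11 (Eif3j1), -0.079 to 0.0025 (Eif4e), -0.093 to 0.098 (Eif4e2), -0.18 to 0.056 (Eif4h), -0.13 to 0.13 (Eif5a), -0.42 to 0.20 (Rpl22l1), -0.081 to 0.11 (Rpl7l1) and -0.020 to 0.46 (Rps27l).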
